A study of Mus musculus with 12 samples.

Results

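The neutrophil granule and surface genes followed here are 10 mouse genes, S100a8, S100a9, Ngp, Camp, Lcn2, Mmp8, Mmp9, Retnlg, Csf3r and Il1r2. They were taken by gene symbol from a table of raw counts for 49585 genes, and all 10 were present and passed the filter on low counts that 18556 genes passed. The 12 libraries were poly(A) RNA-seq of whole lung, with 3 libraries in each of 4 groups of C57BL/6J mice. Every mouse carried a subcutaneous tumour of the MO4 melanoma line, so none of the groups is free of tumour and none of the comparisons measures the tumour itself.

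The combination group was 22 months old and received an anti-PD-1 antibody together with an antibody to the IL-21 receptor. The aged anti-PD-1 group was 22 months old and received the anti-PD-1 antibody alone. The aged control group was 22 months old and received an isotype-matched rat antibody, and the young anti-PD-1 group was 2 months old and received the anti-PD-1 antibody. The anti-PD-1 or control antibody was injected on days 3, 7 and 11 after the tumour cells, and the labels give no separate days for the IL-21 receptor antibody. Aged anti-PD-1 libraries were compared with young anti-PD-1 and with aged control libraries, and combination libraries with aged anti-PD-1 and with aged control libraries. The aged anti-PD-1 libraries enter 3 of these 4 comparisons and the aged control libraries 2, so a library that stands apart moves several comparisons at once. The labels do not say that each library came from a separate mouse, and p-values measure only the spread among these libraries.

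Neutrophils are short-lived white cells made in the bone marrow, which pack antimicrobial proteins and proteases into granules at successive stages of maturation. Primary granules are filled first, specific granules next and gelatinase granules last, while the calcium-binding proteins S100A8 and S100A9 fill the cytosol of mature cells. The lung capillaries hold a large pool of such cells, and they enter the tissue in response to chemokines such as CXCL1 and CXCL2.

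Counts totalled 16021877 to 22058620 per library, and levels are given as CPM, read counts scaled to library size with edgeR's TMM factors. A gene is called higher or lower when edgeR's quasi-likelihood test gave a Benjamini-Hochberg adjusted p under 0.05 over all 18556 genes. In a bulk sample, fewer cells of a type and less RNA per cell cannot be told apart. Surfactant and other type 2 alveolar genes summed to 14356 to 26971 CPM across the libraries, so markers of lung tissue were abundant in all of them. Ly6g, a defining surface marker of mouse neutrophils, was detected at a low level, averaging 1.59 ± 0.46 CPM in combination, 0.961 ± 0.585 CPM in aged anti-PD-1, 1.69 ± 0.79 CPM in aged control and 0.876 ± 0.291 CPM in young anti-PD-1 lungs (SD, n = 3 each).

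Promoters of 3 members are shown by the 250 bases before their RefSeq start (GRCm38.p6). Of them, S100a9 and Retnlg were called between antibody groups of aged lungs, while Mmp8 was not called in any comparison. A gene that is not called may still differ, and which cells supplied the reads of the 3 genes was not tested. Capitals mark the letters TTNNGNAA on either strand, a loose form of the site of C/EBP proteins, the transcription factors that drive granulocyte genes. S100a9 is on the minus strand at chr3:90695722-90695971, Retnlg on the plus strand at chr16:48872358-48872607 and Mmp8 on the plus strand at chr9:7558179-7558428.
S100a9: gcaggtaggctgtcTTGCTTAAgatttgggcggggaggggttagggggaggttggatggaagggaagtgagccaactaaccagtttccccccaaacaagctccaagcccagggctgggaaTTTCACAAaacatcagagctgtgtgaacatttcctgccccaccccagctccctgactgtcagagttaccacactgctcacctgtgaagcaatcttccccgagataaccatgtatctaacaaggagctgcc
Retnlg: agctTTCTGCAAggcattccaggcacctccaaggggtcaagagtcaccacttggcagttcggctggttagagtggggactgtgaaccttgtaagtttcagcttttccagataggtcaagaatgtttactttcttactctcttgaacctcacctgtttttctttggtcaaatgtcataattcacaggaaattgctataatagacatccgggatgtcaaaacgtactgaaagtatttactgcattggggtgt
Mmp8: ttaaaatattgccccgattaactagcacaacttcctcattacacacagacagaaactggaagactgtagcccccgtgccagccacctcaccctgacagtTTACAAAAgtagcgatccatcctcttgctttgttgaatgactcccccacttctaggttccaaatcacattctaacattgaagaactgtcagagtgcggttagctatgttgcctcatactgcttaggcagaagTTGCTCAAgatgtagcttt

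RefSeq windows were matched for 9 of the 10 members in the table of promoter windows used here, and the window of Mmp9 was not analysed here. The C/EBP letters stood in 6 of these 9 windows (S100a8, S100a9, Ngp, Lcn2, Mmp8 and Retnlg), against 36.8% of 32851 windows of all genes. The letters GAGGAAGT, a form of the PU.1 site, stood in 2 of 9 (S100a8 and Mmp8) against 2.44% of all windows, and did not overlap the C/EBP letters there. The motif of NF-kB, searched with 10 letters, stood in none of the 9, against 1.41% of all windows. Such matches are a description of the letters in these windows.

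Across the 12 libraries, levels per kilobase of exon (RPKM, from GENCODE M21 exon lengths) spanned a wide range among the members. S100a9 averaged 1068 RPKM and S100a8 483 RPKM, followed by Retnlg at 152, Il1r2 at 70.1 and Csf3r at 60.8 RPKM. Lcn2 averaged 39.3, Mmp9 23.7, Ngp 19.0, Camp 11.6 and Mmp8 6.80 RPKM. The cytosolic pair was thus the most abundant and the collagenase the least. In 6 members (S100a8, S100a9, Mmp8, Mmp9, Retnlg and Csf3r) the group means ran in the same order, highest in aged control, then combination, aged anti-PD-1 and young anti-PD-1 lungs.

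**Figure D1:**
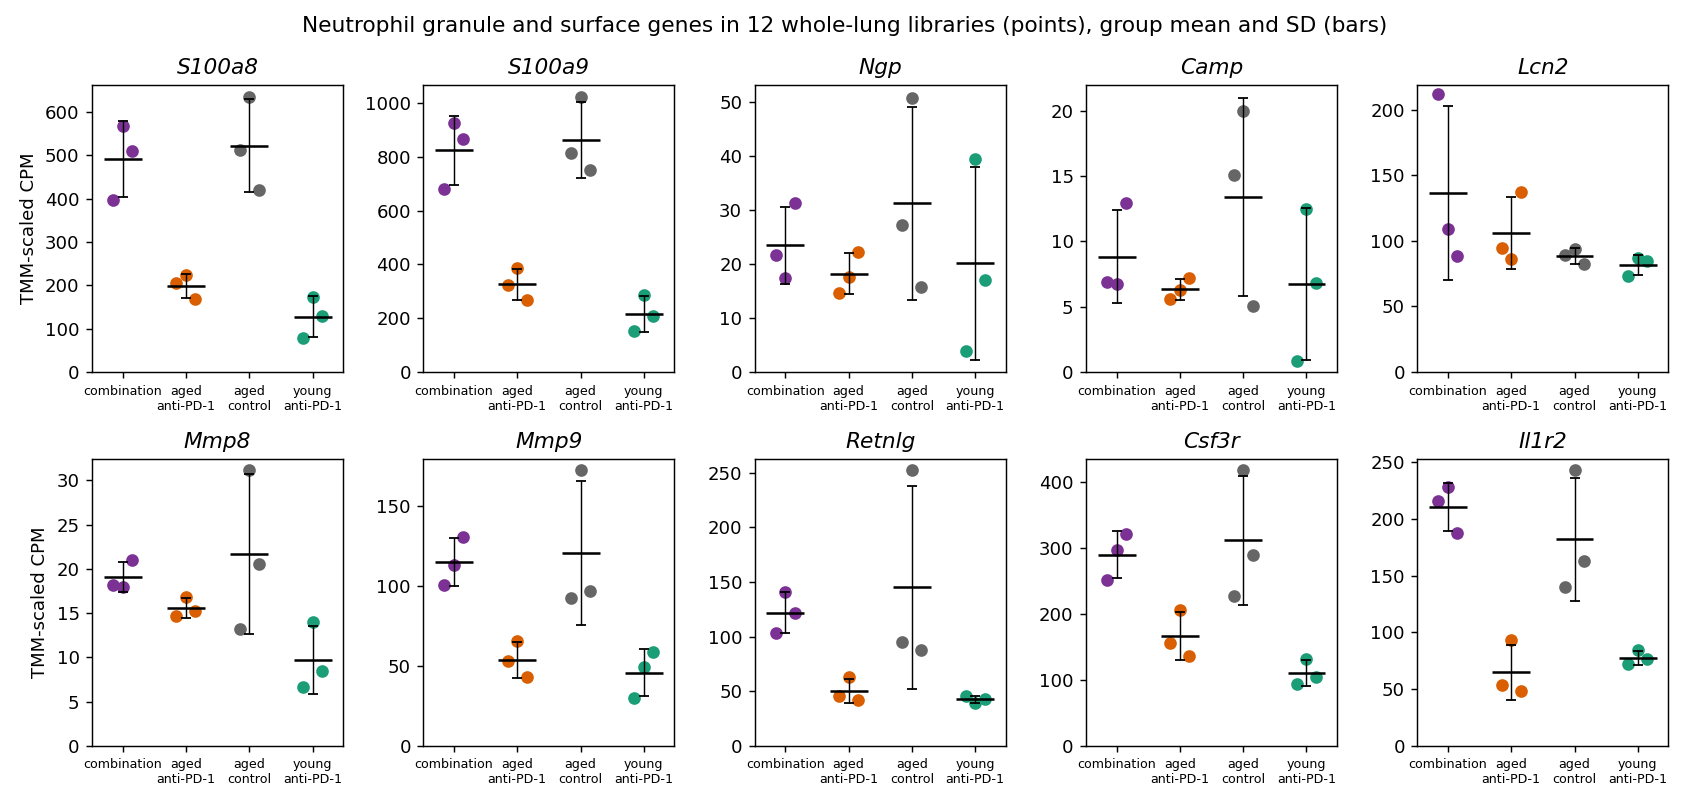
Level of each member in TMM-scaled CPM (linear axis from 0) in the 12 libraries, with points for libraries, a horizontal bar for the group mean and a vertical bar for the SD (n = 3). For S100a8 the combination libraries sit between 397 and 567 CPM and the aged anti-PD-1 libraries between 169 and 224 CPM, while the groups of Ngp, Camp and Lcn2 overlap in all 4 comparisons made.

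In aged lungs, anti-PD-1 treatment went with lower levels of 6 of the 10 genes than the control antibody, and none was higher. The background was 10.9% of all tested genes called, 5.58% lower and 5.34% higher. The 6 were S100a8, S100a9, Mmp9, Retnlg, Csf3r and Il1r2, and for each of them all 3 aged anti-PD-1 libraries lay below all 3 aged control libraries, as they did for 16.4% of all tested genes. The median log2 fold change of the 10 members was -1.12, beside -0.02 over all tested genes. When the IL-21 receptor antibody was added, the same 6 members were called higher than under anti-PD-1 alone and none lower, where 9.02% of all genes were called, 4.67% higher and 4.35% lower. The ranges were apart and higher for those 6 and for Mmp8, beside 15.7% of all genes, and the median of the 10 was 0.95 on the log2 scale beside -0.01 over all genes. Both comparisons use the same 3 aged anti-PD-1 libraries, so they are not independent of each other.

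S100a8 and S100a9 encode the subunits of calprotectin, which binds calcium, zinc and manganese and is the main cytosolic protein of neutrophils. S100a8 stood at 397, 567 and 511 CPM in combination lungs and at 205, 224 and 169 CPM in aged anti-PD-1 lungs. It stood at 512, 635 and 420 CPM in aged control and at 79.1, 174 and 130 CPM in young anti-PD-1 lungs. The combination and aged control libraries overlapped, both lay above every aged anti-PD-1 library, and 1 young library lay inside the aged anti-PD-1 range. Aged anti-PD-1 lungs differed from aged control lungs by a log2 fold change of -1.39 ± 0.25 (SE; edgeR adjusted p = 0.00745). Combination lungs differed from aged anti-PD-1 lungs by 1.30 ± 0.25 (edgeR adjusted p = 0.0106), a 2.47-fold higher level, and this call was lost without combination replicate 2 (1.18, edgeR adjusted p = 0.0613).

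S100a9 stood at 679, 927 and 866 CPM in combination lungs and at 325, 386 and 269 CPM in aged anti-PD-1 lungs. It stood at 813, 1024 and 753 CPM in aged control lungs and at 154, 285 and 209.7 CPM in young anti-PD-1 lungs. The picture was that of its partner, with every aged anti-PD-1 library under every combination and aged control library. The log2 fold change was -1.40 ± 0.21 for aged anti-PD-1 against aged control (edgeR adjusted p = 0.00472) and 1.34 ± 0.21 for combination against aged anti-PD-1 (edgeR adjusted p = 0.00541). Counts of S100a8 were 0.513 to 0.631 times those of S100a9 in the 12 libraries, so the pair moved almost in proportion.

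Il1r2, a decoy receptor that binds interleukin 1 without signalling, had the largest difference of the 10 between combination and aged anti-PD-1 lungs. It stood at 216, 228 and 188 CPM in combination lungs and at 53.3, 92.9 and 48.6 CPM in aged anti-PD-1 lungs. It stood at 139.9, 243 and 163 CPM in aged control lungs and at 72.1, 84.5 and 76.4 CPM in young anti-PD-1 lungs. The aged anti-PD-1 libraries lay below the other aged groups and on both sides of the young ones. The log2 fold change was 1.70 ± 0.24 for combination against aged anti-PD-1 (edgeR adjusted p = 0.00386), a 3.25-fold higher level, and -1.49 ± 0.24 for aged anti-PD-1 against aged control (edgeR adjusted p = 0.00581). Genes that overlap Il1r2 held 480 counts in all, 1.64% of its own, and whether counting used strand is not given in the sources used here.

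Csf3r encodes the receptor of granulocyte colony-stimulating factor, the cytokine that drives neutrophil production. It stood at 251, 298 and 321 CPM in combination lungs and at 156, 207 and 136 CPM in aged anti-PD-1 lungs. It stood at 227, 419 and 289.9 CPM in aged control lungs and at 93.3, 132 and 105 CPM in young anti-PD-1 lungs. The aged anti-PD-1 libraries lay between the young ones and the other aged ones, with no overlap on either side. Fitted differences (log2) were 0.80 ± 0.21 for combination against aged anti-PD-1 (edgeR adjusted p = 0.0361) and -0.91 ± 0.21 for aged anti-PD-1 against aged control (edgeR adjusted p = 0.0220). Both calls rested on single libraries. Without aged anti-PD-1 replicate 1 or 3 the adjusted p (edgeR) was 0.117 or 0.112 against combination and 0.0668 or 0.0793 against aged control. It was 0.128 without combination replicate 2, 0.0892 without combination replicate 3, and 0.0747 without aged control replicate 2.

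Mmp9 encodes gelatinase B, the protease that names the gelatinase granule. It stood at 101, 113 and 131 CPM in combination lungs and at 53.1, 65.5 and 42.9 CPM in aged anti-PD-1 lungs. It stood at 92.4, 173 and 97.0 CPM in aged control lungs and at 29.7, 49.1 and 58.7 CPM in young anti-PD-1 lungs. Aged anti-PD-1 and young libraries overlapped, below both other groups. On the log2 scale the difference was 1.09 ± 0.27 for combination against aged anti-PD-1 (edgeR adjusted p = 0.0292) and -1.16 ± 0.27 for aged anti-PD-1 against aged control (edgeR adjusted p = 0.0223). These calls were lost without aged anti-PD-1 replicate 1 or 3 (edgeR adjusted p = 0.0897 or 0.0947 against combination, 0.0633 or 0.0819 against aged control). They were also lost without combination replicate 2 or 3 (edgeR adjusted p = 0.101 or 0.0735) and without aged control replicate 2 (edgeR adjusted p = 0.0736).

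Retnlg encodes a secreted protein of the resistin-like family that is abundant in mouse neutrophils. It stood at 103, 141 and 122 CPM in combination lungs and at 45.8, 62.6 and 41.7 CPM in aged anti-PD-1 lungs. It stood at 94.8, 252 and 88.2 CPM in aged control lungs and at 46.0, 39.5 and 42.6 CPM in young anti-PD-1 lungs. Aged control replicate 2 was far above its group, and the aged anti-PD-1 and young libraries lay together at the bottom. The log2 fold change was 1.28 ± 0.34 for combination against aged anti-PD-1 (edgeR adjusted p = 0.0387) and -1.54 ± 0.34 for aged anti-PD-1 against aged control (edgeR adjusted p = 0.0201). Without aged control replicate 2 the second value shrank to -0.87 and stayed called (edgeR adjusted p = 0.0201). Without aged anti-PD-1 replicate 1 or 3 it was not called (edgeR adjusted p = 0.0656 or 0.0740), and the difference between combination and aged anti-PD-1 was not called without any of the 3 aged anti-PD-1 libraries (edgeR adjusted p = 0.126, 0.0665 and 0.114) or without combination replicate 2 or 3 (0.141 or 0.0741).

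Of the 6 genes, S100a9 and Il1r2 were called in both treatment comparisons under every alternative run. With no filter on low counts, Mmp9, Retnlg and Csf3r were called in neither (edgeR adjusted p = 0.0519 to 0.129). Fits of the 2 groups alone did not call Retnlg (edgeR adjusted p = 0.0573) or Csf3r (0.0626) in aged anti-PD-1 against aged control, and scaling by library totals did not call Csf3r in combination against aged anti-PD-1 (0.0742).

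**Figure D2:**
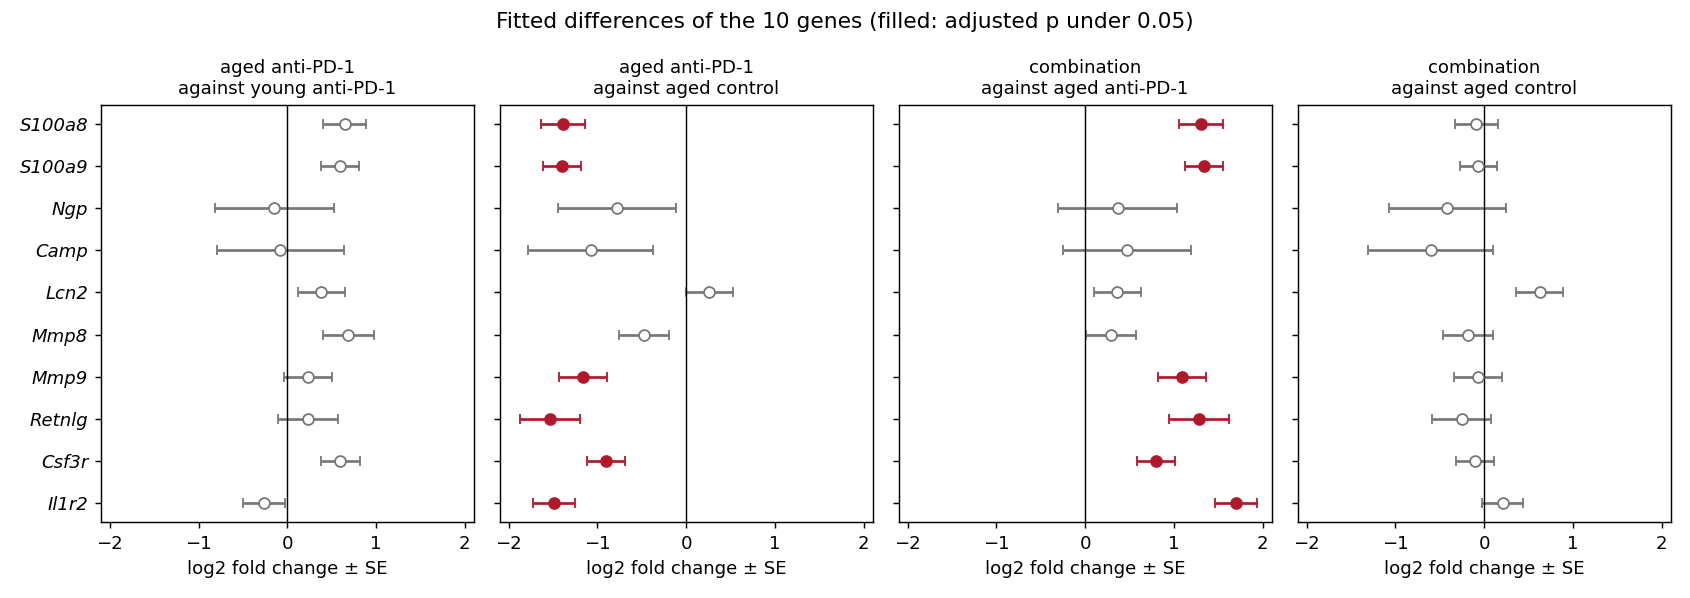
Fitted log2 fold change of each member with its SE (horizontal bars) in the 4 comparisons, filled in red where the edgeR adjusted p is under 0.05. The same 6 genes are filled left of 0 in aged anti-PD-1 against aged control (-1.54 to -0.91) and right of 0 in combination against aged anti-PD-1 (0.80 to 1.70), and no gene is filled in the other panels.

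The other 4 members were not called in any comparison. Mmp8 encodes neutrophil collagenase, a protease of the specific granule. It stood at 18.2, 18.0 and 21.0 CPM in combination lungs and at 14.7, 16.8 and 15.2 CPM in aged anti-PD-1 lungs. It stood at 13.2, 31.2 and 20.5 CPM in aged control lungs and at 6.66, 14.0 and 8.43 CPM in young anti-PD-1 lungs. Its aged control libraries were spread over the whole range of the other aged groups. The log2 fold change was 0.29 for combination against aged anti-PD-1 (95% interval -0.32 to 0.90) and -0.47 for aged anti-PD-1 against aged control (95% interval -1.08 to 0.13), so halving could not be told from no change in the second. Counts of Mmp8 per count of Mmp9 were 0.158 to 0.180 in combination lungs, 0.257 to 0.354 in aged anti-PD-1 lungs, 0.143 to 0.212 in aged control lungs and 0.144 to 0.284 in young anti-PD-1 lungs.

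Lcn2 encodes a siderophore-binding protein of the specific granule that epithelial cells also make, and it did not follow the others. It stood at 212, 109 and 88.6 CPM in combination lungs and at 94.7, 86.4 and 137 CPM in aged anti-PD-1 lungs. It stood at 88.9, 94.2 and 82.3 CPM in aged control lungs and at 72.9, 86.7 and 84.9 CPM in young anti-PD-1 lungs. Combination replicate 1 held the highest value, and the groups overlapped in all 4 comparisons made. Its level correlated with the mean profile of the other 9 members at r = 0.24 over the 12 libraries, and at -0.14 once group means were removed, where Csf3r had 0.94 and 0.83. Without combination replicate 1 its log2 fold change for combination against aged anti-PD-1 was -0.10, beside 0.36 with all libraries.

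Ngp and Camp are made in immature neutrophils in the bone marrow. Ngp encodes neutrophilic granule protein, and Camp encodes the antimicrobial peptide cathelicidin. Ngp stood at 21.6, 17.5 and 31.3 CPM in combination lungs and at 14.7, 17.6 and 22.2 CPM in aged anti-PD-1 lungs. It stood at 27.2, 50.8 and 15.8 CPM in aged control lungs and at 3.93, 39.4 and 17.1 CPM in young anti-PD-1 lungs. Young replicates 1 and 2 marked both ends of a spread that was wider than any difference between groups.

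Camp stood at 6.86, 6.72 and 12.9 CPM in combination lungs and at 5.59, 6.28 and 7.18 CPM in aged anti-PD-1 lungs. It stood at 15.1, 20.0 and 5.08 CPM in aged control lungs and at 0.867, 12.5 and 6.81 CPM in young anti-PD-1 lungs. Its lowest library, young replicate 1, rested on 19 counts, against 250 in young replicate 2. Camp and Ngp went up and down together, with r = 0.98 over the 12 libraries and 0.97 with group means removed. The genes most like them by that measure included Elane, the neutrophil elastase of the primary granule (r = 0.87 with Camp and 0.91 with Ngp). Prg2, listed here as an eosinophil gene, was as close (r = 0.88 with each). Elane was low, with group means of 0.434 to 0.788 CPM. The standard error of the log2 fold changes of Camp and Ngp was 0.66 to 0.72, so a change of the size seen in S100a8 was not detectable for them. The 95% interval for aged anti-PD-1 against aged control ran from -2.65 to 0.50 for Camp and from -2.27 to 0.70 for Ngp.

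No young group received the control antibody, so age alone could not be measured. Here and below, with age means aged anti-PD-1 against young anti-PD-1 lungs. None of the 10 members was called in that comparison, where 15.3% of all tested genes were, 8.09% higher and 7.16% lower. Values were higher in aged anti-PD-1 than in young anti-PD-1 lungs for 7 of 10, with a median log2 fold change of 0.31 beside -0.01 over all genes. The highest were Mmp8 at 0.69 ± 0.29 (edgeR adjusted p = 0.130), S100a8 at 0.64 ± 0.24 (0.0946), Csf3r at 0.60 ± 0.21 (0.0780) and S100a9 at 0.59 ± 0.21 (0.0742). The ranges were apart for Mmp8 and Csf3r, with aged higher, as for 19.7% of all genes. Without young replicate 2, S100a8 (0.93, edgeR adjusted p = 0.0347), S100a9 (0.84, 0.0277) and Mmp8 (1.04, 0.0428) were called higher in aged lungs. DESeq2 called S100a8, S100a9 and Csf3r (adjusted p = 0.0445, 0.0331 and 0.0353), so for these genes the side of the threshold depended on the tool.

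Between combination and aged control lungs none of the 10 members was called by edgeR, and neither was any other of the 18556 genes, a background of 0%. At an unadjusted p under 0.05 edgeR listed 1228 genes, 1 of them a member, Lcn2 (0.63 ± 0.27, edgeR adjusted p = 0.737). DESeq2 called 76 genes at an adjusted p under 0.05 and no member, and limma-voom called 0 genes. The log2 fold changes of the 6 genes called elsewhere were -0.25 to 0.21, and their intervals remained wide. For S100a9 the 95% interval was -0.52 to 0.38, for Il1r2 -0.29 to 0.71 and for Retnlg -0.98 to 0.48, so differences of these sizes between combination and control lungs remain compatible with the data.

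Surface receptors of neutrophils beyond Csf3r and Il1r2 were followed as a list of 19 genes. Against young anti-PD-1 lungs, 13 of 19 were called higher in aged anti-PD-1 lungs and none lower, beside 8.09% of all genes called higher. Fpr1, a receptor of bacterial formyl peptides, averaged 28.7 ± 5.3 CPM in aged anti-PD-1 and 12.5 ± 3.5 CPM in young anti-PD-1 lungs (SD, n = 3 each; log2 fold change 1.20 ± 0.22, edgeR adjusted p = 0.00439). Mrgpra2b and Clec4d were also called higher (2.11 ± 0.41 and 0.73 ± 0.16). With each of the 6 libraries left out in turn, 6 to 10 of the 19 were called. In the same comparison 1 of 10 monocyte genes was called, F13a1, at 72.8 ± 10.1 CPM in aged anti-PD-1 and 35.3 ± 2.6 CPM in young anti-PD-1 lungs (log2 fold change 1.05 ± 0.13, edgeR adjusted p = 0.000442), a call that held with any 1 library left out. The 10 monocyte genes summed to 1232 to 1484 CPM in aged anti-PD-1 and 1132 to 1212 CPM in young anti-PD-1 lungs, and their part in the receptor calls was not tested.

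Against aged control lungs, 5 of the 19 receptors were called lower in aged anti-PD-1 lungs and none higher, beside 5.58% of all genes called lower. Against aged anti-PD-1 lungs 5 were called higher in combination lungs and none lower, beside 4.67% of all genes called higher. Clec4d, a C-type lectin of myeloid cells, averaged 94.6 ± 2.7 CPM in combination, 47.0 ± 7.1 CPM in aged anti-PD-1 and 101 ± 16 CPM in aged control lungs (SD, n = 3 each). Its log2 fold change was 1.01 ± 0.15 for combination against aged anti-PD-1 (edgeR adjusted p = 0.00444) and -1.11 ± 0.15 for aged anti-PD-1 against aged control (edgeR adjusted p = 0.00370). Hcar2, a receptor of hydroxycarboxylic acids, averaged 135 ± 28 CPM in combination, 44.0 ± 8.1 CPM in aged anti-PD-1 and 119 ± 33 CPM in aged control lungs. Its log2 fold change was 1.61 ± 0.23 in the first comparison (edgeR adjusted p = 0.00338) and -1.44 ± 0.22 in the second (edgeR adjusted p = 0.00552). Clec4d and Hcar2 kept both calls with any 1 library left out, and Trem3, C5ar1, Siglece and Cd300ld did not. With 1 library left out, 2 to 10 of the 19 were called in aged anti-PD-1 against aged control. The count was 2 to 3 in combination against aged anti-PD-1, below the 5 called with all libraries.

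Fpr1, chosen here after its values were seen, ran the other way in the treated aged lungs. It averaged 18.0 ± 1.8 CPM in combination, 28.7 ± 5.3 CPM in aged anti-PD-1 and 18.4 ± 4.6 CPM in aged control lungs. The log2 fold change was -0.67 ± 0.22 for combination against aged anti-PD-1 (edgeR adjusted p = 0.0744) and 0.65 ± 0.22 for aged anti-PD-1 against aged control (edgeR adjusted p = 0.0749), neither of which was called.

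A list of 16 other genes was drawn up for the specific and gelatinase granules. It also holds genes whose proteins are not granule contents, such as Ltb4r1, Padi4 and Stfa2l1, so the counts describe the list. Of the 16, 5 were called lower in aged anti-PD-1 than in aged control lungs, beside 5.58% of all genes. In combination against aged anti-PD-1 lungs 4 were called higher, beside 4.67% of all genes. Pglyrp1, a granule protein that binds bacterial peptidoglycan, averaged 59.5 ± 5.3 CPM in combination, 36.8 ± 6.9 CPM in aged anti-PD-1 and 61.0 ± 9.5 CPM in aged control lungs (SD, n = 3 each). Its log2 fold change was 0.70 ± 0.14 (edgeR adjusted p = 0.0110) in combination against aged anti-PD-1 and -0.73 ± 0.14 (edgeR adjusted p = 0.00749) in aged anti-PD-1 against aged control, and the first call was lost without combination replicate 2 (edgeR adjusted p = 0.0664). Stfa2l1, Itgam and Padi4 were called the same way in both comparisons, and each lost calls when a library was left out. Lyz2 and Chil3, which macrophages also make, were not called (-0.08 ± 0.16 and 0.27 ± 0.31 for aged anti-PD-1 against aged control). With single libraries left out, 1 to 5 of the 16 were called in aged anti-PD-1 against aged control and 0 to 4 in combination against aged anti-PD-1. With age, 1 of the 16 was called higher (Stfa2l1, which averaged 5.97 ± 1.72 CPM in aged anti-PD-1 and 2.22 ± 0.46 CPM in young anti-PD-1 lungs; SD, n = 3 each) and 2 lower (Anxa3 and Hp), beside 7.16% of all genes called lower. The calls of Anxa3 and Hp were kept in 2 and 1 of the 6 fits with a library left out, where 1 to 4 of the 16 were called. Anxa3 averaged 272 ± 20 CPM in aged anti-PD-1 and 383 ± 23 CPM in young anti-PD-1 lungs. Hp averaged 588 ± 70 CPM and 819 ± 24 CPM in the same groups. Which cells supplied the reads of these 2 genes was not tested.

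None of the 6 primary granule genes tested was called in either treatment comparison, as for Ngp and Camp. The list holds Mpo, the myeloperoxidase, which averaged 1.33 ± 0.93 CPM in combination, 1.14 ± 0.39 CPM in aged anti-PD-1, 1.70 ± 1.27 CPM in aged control and 1.66 ± 1.29 CPM in young anti-PD-1 lungs (SD, n = 3 each). With age Serpinb1a, an inhibitor of neutrophil serine proteases, was called higher (0.58 ± 0.14) and Prss57 lower (-0.77 ± 0.23), and both lost their calls with single libraries left out.

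**Figure D3:**
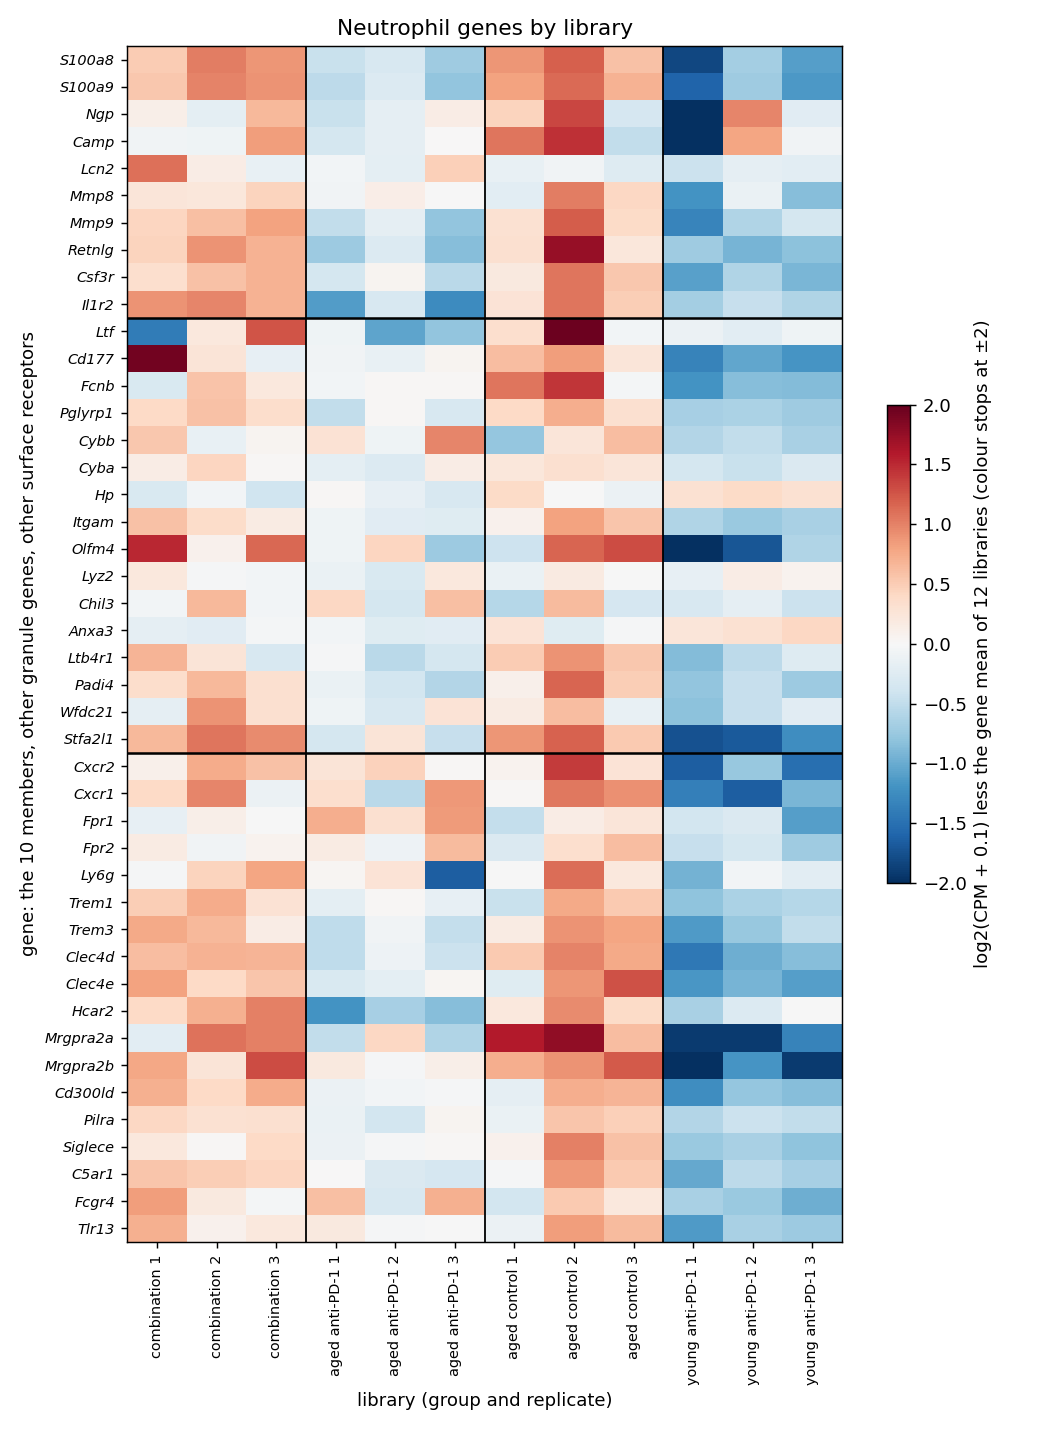
Level of the 10 members (top), the 16 genes of the granule list (middle) and other surface receptors (bottom) in the 12 libraries. Values are log2(CPM + 0.1) less the mean of the gene over all libraries (colour, red above and blue below, cut at ±2). Most rows are red in combination and aged control libraries and blue in young anti-PD-1 libraries. Aged control replicate 2 is the reddest column among the members. Lcn2, Ltf, Hp, Anxa3, Lyz2 and Fpr1 are among the rows that depart from the pattern of most rows.

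Chemokines and growth factors that recruit or expand granulocytes formed a list of 9 genes. Cxcl1, Cxcl2 and Cxcl3, ligands of the neutrophil receptor CXCR2, were called lower in aged anti-PD-1 than in aged control lungs and higher in combination than in aged anti-PD-1 lungs, and these 6 calls held with any 1 library left out. Cxcl2 averaged 669 ± 102 CPM in combination, 126 ± 18 CPM in aged anti-PD-1 and 504 ± 203 CPM in aged control lungs (SD, n = 3 each). Its log2 fold change was 2.41 ± 0.26 for combination against aged anti-PD-1 (edgeR adjusted p = 0.00108) and -2.00 ± 0.26 for aged anti-PD-1 against aged control (edgeR adjusted p = 0.00319). Il17a, a cytokine that induces such chemokines, was called higher in combination than in aged anti-PD-1 lungs (2.34 ± 0.63), a call kept in 1 of the 6 fits with a library left out. Its level was very low, at 0.899 ± 0.364 CPM in combination and 0.170 ± 0.060 CPM in aged anti-PD-1 lungs. Cxcl12, which retains neutrophils in the marrow, was called higher in aged anti-PD-1 than in aged control lungs (0.47 ± 0.11, edgeR adjusted p = 0.0228), and this call was lost without aged anti-PD-1 replicate 2 or 3 or aged control replicate 3. Against young anti-PD-1 lungs, aged anti-PD-1 lungs had Cxcl12 called higher (0.61 ± 0.11) and Cxcl2 lower (-0.84 ± 0.25), the second lost with any 1 library left out. The shares of all genes were 8.09% higher and 7.16% lower. Cxcl2 averaged 225 ± 17 CPM in young anti-PD-1 lungs, below every aged control library, so its lower level was not shared by the aged control group.

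Of 16 genes whose proteins bind or signal with those of the members, 1 was called lower in aged anti-PD-1 than in aged control lungs, beside 5.58% of all genes. The same gene was called higher in combination than in aged anti-PD-1 lungs, beside 4.67% of all genes. Each count was thus near the share of all genes. With 1 library left out the count was 0 to 4 in aged anti-PD-1 against aged control and 1 to 2 in combination against aged anti-PD-1. The gene called was Il1b, the ligand that the decoy receptor of Il1r2 captures. Il1b averaged 876 ± 137 CPM in combination, 365 ± 48 CPM in aged anti-PD-1 and 726 ± 213 CPM in aged control lungs (SD, n = 3 each). Its log2 fold change was 1.26 ± 0.21 for combination against aged anti-PD-1 (edgeR adjusted p = 0.00656) and -0.99 ± 0.21 for aged anti-PD-1 against aged control (edgeR adjusted p = 0.0149), the second lost without aged anti-PD-1 replicate 1 or 3 or aged control replicate 2. Il1r1, the signalling receptor for the same ligand, stood at 29.9 ± 4.4 CPM in combination, 29.9 ± 4.2 CPM in aged anti-PD-1 and 31.2 ± 1.0 CPM in aged control lungs and was not called. With age 2 of the 16 were called lower, beside 7.16% of all genes. They were Ager (-1.10 ± 0.33), a receptor for S100 proteins, and Timp2 (-0.35 ± 0.10), an inhibitor of matrix metalloproteinases. Both lost their calls with single libraries left out.

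Among 8 transcription factors of granulocytes, 3 were called lower in aged anti-PD-1 than in aged control lungs (Cebpb, Cebpd and Spi1), beside 5.58% of all genes. In combination against aged anti-PD-1 lungs 3 were called higher (Cebpb, Junb and Spi1), beside 4.67% of all genes. With 1 library left out, 1 to 3 of the 8 were called in each of these comparisons. Cebpb, a C/EBP factor used when neutrophil output must rise, averaged 645 ± 95 CPM in combination, 294 ± 64 CPM in aged anti-PD-1 and 683 ± 115 CPM in aged control lungs (SD, n = 3 each). Its log2 fold change was 1.13 ± 0.18 for combination against aged anti-PD-1 (edgeR adjusted p = 0.00541) and -1.22 ± 0.18 for aged anti-PD-1 against aged control (edgeR adjusted p = 0.00431), and both held with any 1 library left out. Those of Spi1, which encodes PU.1, and of Cebpd and Junb did not. With age 1 of the 8 factors was called lower, beside 7.16% of all genes. It was Klf5 (-1.14 ± 0.31), a call lost without aged anti-PD-1 replicate 2 or 3 or young replicate 2 or 3 (highest edgeR adjusted p = 0.112). Which cells supplied the reads of these factors was not tested.

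**Figure D4:**
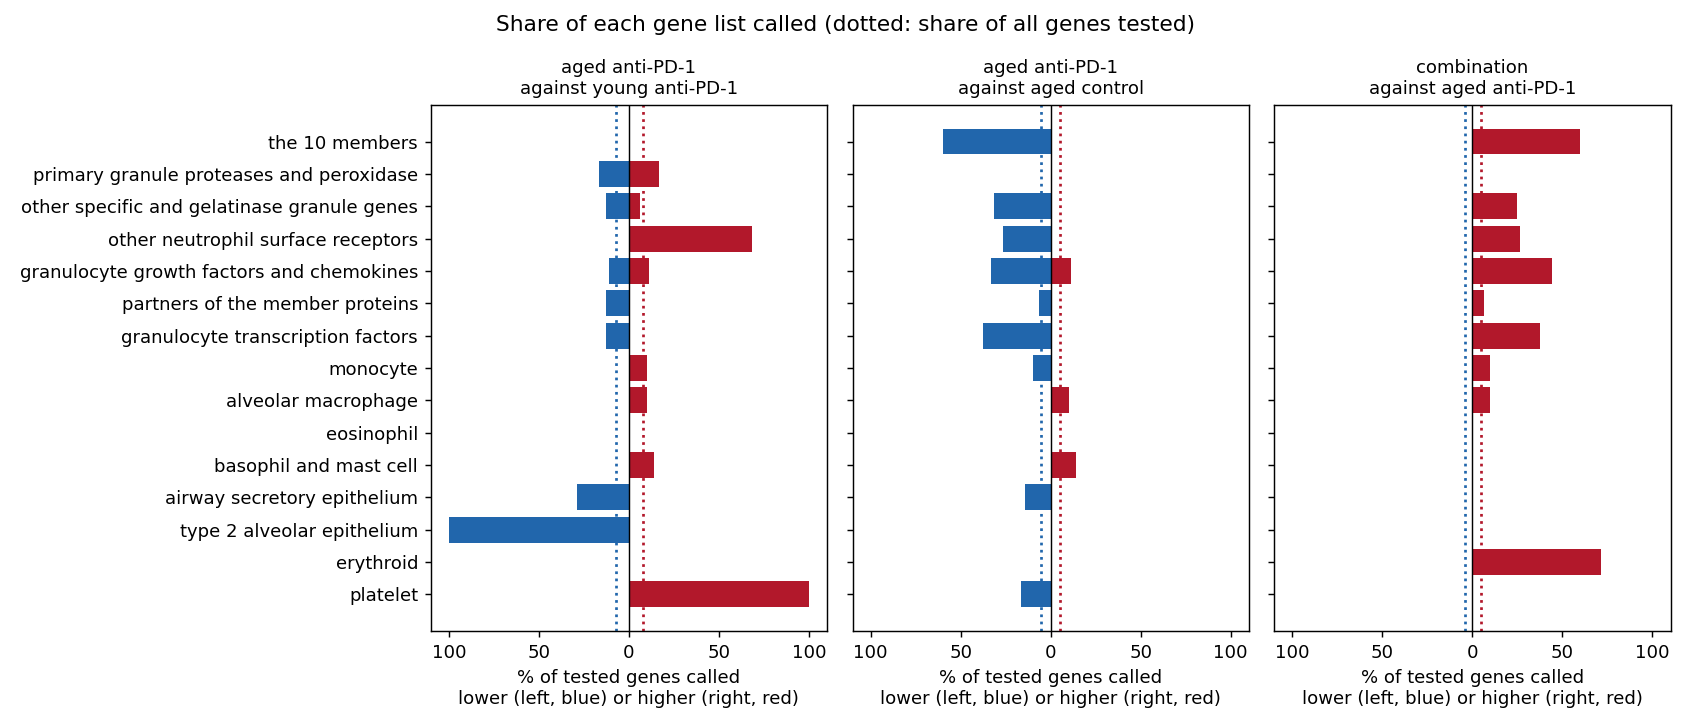
Share of the tested genes of each list that edgeR called higher (red, right) or lower (blue, left) in 3 comparisons, with dotted lines for the shares of all 18556 genes. The members show 6 of 10 lower in aged anti-PD-1 against aged control and 6 of 10 higher in combination against aged anti-PD-1. In that last panel 5 of 7 erythroid genes are also higher. All 6 platelet genes are higher and all 6 type 2 alveolar genes lower in aged anti-PD-1 against young anti-PD-1, and 1 platelet gene is lower in aged anti-PD-1 against aged control.

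Markers of other cells moved in some of the same comparisons. Of 7 erythroid genes, 5 were called higher in combination than in aged anti-PD-1 lungs, and haemoglobin took 1.76% to 3.98% of counts in combination, 1.06% to 1.30% in aged anti-PD-1, 1.26% to 1.99% in aged control and 1.28% to 1.53% in young anti-PD-1 lungs. None of the 7 was called in aged anti-PD-1 against aged control, where the summed erythroid level was 9967 to 13135 CPM in aged anti-PD-1 and 12733 to 20703 CPM in aged control lungs. With haemoglobin, immunoglobulin and mitochondrial genes kept out of the scaling, the same 6 members were called in each of the treatment comparisons. The part of blood content in the members' levels was not tested.

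Of 10 monocyte genes, 1 (Plac8, which neutrophils also express) was called lower in aged anti-PD-1 than in aged control lungs and higher in combination than in aged anti-PD-1 lungs (-1.12 ± 0.25 and 1.10 ± 0.25), and the summed level was 1293 to 1972 CPM in combination, 1232 to 1484 CPM in aged anti-PD-1 and 1313 to 1993 CPM in aged control lungs. Each Plac8 call was lost without aged anti-PD-1 replicate 2 or 3, the first also without aged control replicate 2 and the second also without combination replicate 2 (highest edgeR adjusted p 0.0628 and 0.0809). The 6 platelet genes were all called higher in aged anti-PD-1 than in young anti-PD-1 lungs and the 6 type 2 alveolar genes all lower. In the treatment comparisons, 1 of 6 platelet genes was called lower in aged anti-PD-1 than in aged control lungs (Itgb3, -0.87 ± 0.18) and no type 2 alveolar gene was called. Summed platelet levels were 698 to 1143 CPM in combination, 948 to 1024 CPM in aged anti-PD-1, 1349 to 1790 CPM in aged control and 204 to 387 CPM in young anti-PD-1 lungs. Of 10 alveolar macrophage genes 1 was called higher in each of the 3 comparisons that had calls (Pparg with age, Car4 in aged anti-PD-1 against aged control, Fabp1 in combination against aged anti-PD-1), and these calls were kept in 1, 2 and 2 of the 6 fits with a library left out. Of 7 basophil and mast cell genes, Gata2 alone was called, higher in aged anti-PD-1 lungs than in either the young group or the aged control group, and the second call was kept in 2 of 6 fits with a library left out. Gata2 ran against its list there. In aged anti-PD-1 against aged control 1 of the 7 had a positive log2 fold change, and the list median was -0.67. Mcpt8 (-1.73 ± 0.57) and Cpa3 (-0.78 ± 0.24) were lower in that comparison but not called. None of 4 eosinophil genes was called, and of 7 airway secretory genes 2 were called lower with age and 1 lower in aged anti-PD-1 than in aged control lungs. Mitochondrial genes took 11.5% to 14.9% of counts in combination, 7.88% to 11.9% in aged anti-PD-1, 7.32% to 10.4% in aged control and 6.05% to 7.22% in young anti-PD-1 lungs. Their part in the differences of the members was not tested.

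A list of 11 circadian clock genes, added with results of these data known, also moved in these comparisons. Against aged controls, aged anti-PD-1 lungs had Per3 called higher (log2 fold change 1.70 ± 0.34) and Npas2 (-1.09 ± 0.28) and Nr1d1 (-0.79 ± 0.22) lower. In combination against aged anti-PD-1 lungs Per3 (-1.86 ± 0.34), Tef (-0.86 ± 0.24) and Per2 were called lower and none higher. The first Per3 call was lost without aged control replicate 2 (edgeR adjusted p = 0.0589) and the second without combination replicate 2 (edgeR adjusted p = 0.0620), and the other 4 genes kept their calls in 1 to 3 of 6 fits. Per3 averaged 9.38 ± 1.63 CPM in combination, 34.1 ± 18.4 CPM in aged anti-PD-1, 10.4 ± 2.7 CPM in aged control and 12.3 ± 2.1 CPM in young anti-PD-1 lungs (SD, n = 3 each). With age 4 of the 11 were called higher and 3 lower. With 1 library left out, 0 to 7 were called in aged anti-PD-1 against aged control, 0 to 8 in combination against aged anti-PD-1 and 3 to 10 with age. The part of these genes in the members' differences was not tested.

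Genes that most resembled the mean profile of the 10 members across the 12 libraries were Lilra6, Sirpb1b, Mxd1, Clec4d, Pde1b, Cass4, H2-Q10, Sycp2, Ccr1 and Grina, with Pearson's r of 0.94 to 0.95, and of 0.75 to 0.88 once group means were removed. These values are descriptions over 12 libraries that share their groups. Mxd1, a repressor that pairs with MAX, averaged 238 ± 23 CPM in combination, 129.6 ± 14.7 CPM in aged anti-PD-1, 241 ± 75 CPM in aged control and 97.5 ± 12.2 CPM in young anti-PD-1 lungs (SD, n = 3 each). Ccr1, a chemokine receptor of myeloid cells, averaged 80.7 ± 7.0 CPM in combination, 50.6 ± 6.4 CPM in aged anti-PD-1, 89.1 ± 34.6 CPM in aged control and 37.8 ± 3.6 CPM in young anti-PD-1 lungs. H2-Q10 belongs to the MHC class I family, whose near-identical members share reads, so its level is uncertain.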

How the data were processed

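Whole-lung RNA was poly(A)-selected and made into directional libraries, per the labels' protocols. The authors deposited raw read counts per gene, with no normalization. Per the submitters' processing notes, the tools were bcl2fastq 1.8.4, Trimmomatic, HISAT2 and featureCounts 1.6.3, with build mm10; the strand setting of counting is not given in the sources used here. Groups come from the labels. No batch is given.

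Genes were filtered with filterByExpr (10 counts) and fitted in edgeR 4.0.16 (R 4.3.3) with TMM scaling, 4 group means over the 12 libraries and a robust quasi-likelihood test, adjusted over 18556 genes. The common biological coefficient of variation was 0.156 with 8 residual degrees of freedom. The standard error is the log2 fold change over the square root of F, and the 95% intervals use it. Counts of members rest on 1973 (Camp) to 121734 (S100a9) reads over the 12 libraries. The edgeR step was also run on simulated counts drawn independently for each gene. Such counts do not mimic libraries that stand apart in many genes at once, so no conclusion is drawn from that run. Alternatives were DESeq2 1.42.0, limma 3.58.1 (voom), other scalings and filters, 2-group fits, a replicate block and each library left out. RPKM used GENCODE M21 exon lengths.

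The members and lists were chosen with earlier results of these data known. Named genes of each list were, per comparison, up to 4 called genes with the smallest adjusted p and up to 2 most abundant uncalled genes; Ly6g, Mpo, Il1r1 and others that a sentence singles out outside that rule were chosen after their values were seen. A list of 11 clock genes was added to 14 lists of other genes, of which Ms4a3 and Epx did not pass the filter. One gene of the receptor list is counted there but not reported here by itself.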

Additional observations from a re-analysis of the deposited data

How the results depend on the processing

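Of 600 recomputed log2 fold changes of the members, 539 kept their direction and their side of the threshold, 31 lost a call, 11 gained one and 19 changed sign. S100a9 and Il1r2 kept their calls in both treatment comparisons under all 15 alternatives. Member calls numbered 3, 4 and 1 in aged anti-PD-1 against young anti-PD-1 with DESeq2, with the replicate block and with only the 2 groups compared. They numbered 3 in each treatment comparison with no filter on low counts. Leaving out 1 library gave 0 to 3 members in aged against young, 3 to 6 in aged anti-PD-1 against aged control, 2 to 6 in combination against aged anti-PD-1 and 0 in combination against aged control; for all genes the ranges were 1160 to 2237, 607 to 1995, 260 to 1439 and 0 to 13. All-gene counts in combination against aged anti-PD-1 were 2595 with DESeq2 and 3038 with library totals, where the median log2 fold change of all genes was -0.21 and the split was 361 higher and 2677 lower, beside 866 and 808 with TMM. With library totals the split was 1400 higher and 559 lower in aged anti-PD-1 against aged control, beside 990 and 1035, and 1517 and 930 in aged against young, beside 1502 and 1328. The count was 881 in aged anti-PD-1 against aged control with only the 2 groups compared, and 76 with DESeq2 and 11 with no filter in combination against aged control.

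The sign changes all concern differences that were not called. For aged against young, Ngp and Camp turned positive under the replicate block (0.10 and 0.11) and limma-voom (0.40 and 0.62). With 1 library left out, Ngp ran over -0.64 to 0.80, Camp over -0.61 to 0.73 (both highest without young replicate 2) and Mmp9 over -0.0021 to 0.48. For combination against aged control these ranges were -0.22 to 0.076 for S100a8, -0.16 to 0.073 for S100a9, -0.44 to 0.17 for Mmp8, -0.23 to 0.28 for Mmp9, -0.51 to 0.41 for Retnlg, -0.29 to 0.16 for Csf3r and -0.73 to 0.12 for Ngp, each highest without aged control replicate 2. Lcn2 in combination against aged anti-PD-1 ran over -0.10 to 0.60. The cause was not tested. The labels do not say whether replicate numbers pair the samples. Residuals of same-numbered libraries correlated at a median of -0.01 (-0.17 to 0.17, 18 pairs). With 3 libraries per group such values cannot exclude a pairing or a shared batch. The replicate block left 2493, 1702, 1455 and 0 genes called.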
